A study of Mus musculus with 12 samples.

Results

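Transcripts of the EGF receptor (EGFR) family were followed in interscapular brown fat of mice with a brown-fat Cdk7 deletion and of their control littermates. The members were the ligand genes Btc, Egf, Hbegf, Tgfa, Areg and Ereg, the receptor genes Egfr, Erbb2 and Erbb3, and Errfi1, an inhibitor of these receptors. They made up 10 of the 53379 genes counted and were chosen by name, except that Btc was picked for its fall in the KO and in the cold on these same libraries. Btc values are therefore a description, with no test. All animals were C57BL/6 mice aged 12 weeks and taken at zeitgeber time 9, and every library was a pool of RNA from 2 mice (250 ng each). The groups, of 3 pools each, were CDK7 bKO mice kept 6 h in the cold with food (KO cold), control littermates kept 6 h in the cold with food (WT cold), CDK7 bKO mice at room temperature (KO RT) and control littermates at room temperature (WT RT). The sources used here do not give the Cre driver of the deletion, the temperature of the cold or the sex of the mice. The p-values below are set by the spread between pools, each of which averages 2 animals.

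Cdk7, a kinase of the general transcription factor TFIIH, ran from 4.35 to 5.77 CPM (counts scaled to a common library size) in KO pools and from 15.1 to 17.9 CPM in WT pools, and each library held 27609717 to 36792555 assigned counts. The tissue label was borne out by its markers, since Ucp1, the uncoupling protein of brown fat, was between 3610 and 17500 CPM in every pool. Summed macrophage markers were 266 to 368 CPM in KO cold, 101 to 104 in WT cold, 230 to 296 in KO RT and 68.5 to 94.1 in WT RT, and of the 10 markers Itgam was listed at 0 throughout. Of the 7 epithelial markers, Krt5, Krt8 and Krt14 were at 0 in all pools. Skeletal muscle markers stood highest in KO RT replicate 6 (1290 CPM) and WT RT replicate 2 (873 CPM), against 2.4 to 329 CPM in the other pools, so results whose call depends on these 2 pools are given with and without them.

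EGFR-family ligands are made as membrane-bound precursors, are released by metalloproteases and act on the same or neighbouring cells. Ligand binding pairs the receptors EGFR, ERBB2, ERBB3 and ERBB4, and the activated pair signals through adaptors to RAS and the ERK kinases. ERBB2 has no known ligand of its own and ERBB3 has little kinase activity, so both work as partners of other members. In adipose tissue the family is known for its effects on growth and differentiation of fat cell precursors, and brown fat is known as a source of NRG4, a ligand of ERBB4.

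The 10 members were measured at low levels, led by the inhibitor gene Errfi1. Averaged over the 12 libraries and scaled to exon length, Errfi1 stood at 6.15 CPM per kilobase, and the receptor genes Erbb2, Erbb3 and Egfr at 0.619, 0.507 and 0.413. Averaged over all pools Btc was the most abundant ligand gene among the 10 members, at 0.443 CPM per kilobase, which WT RT carried. Nrg4, a ligand gene outside the members, was far higher, at 25.5 in KO cold and 62.3 in WT cold. Btc and Hbegf were 0.088 and 0.227 in KO cold, 0.17 and 0.226 in WT cold, 0.168 and 0.203 in KO RT, and 1.35 and 0.134 CPM per kilobase in WT RT. Over all pools Hbegf, Egf and Tgfa had 0.197, 0.105 and 0.0803. Areg and Ereg were close to nothing, with 0.00629 and 0.00051 CPM per kilobase. Of the 10 members, 8 passed the filter on low counts, and 7 of these, all but Btc, are read with a test.

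Among the tested members, Egf was lower in the KO and some receptor genes were higher. Hbegf and Tgfa passed no test between genotypes, nor did Erbb3 at room temperature or Egfr in the cold. Erbb4, a receptor gene outside the members, was lower in the KO at both temperatures. Against WT at room temperature, the KO had lower Egf and higher Egfr and Erbb2. In the cold, the KO had lower Egf and higher Erbb2, Erbb3 and Errfi1. Of 22 alternative analyses, these calls in the cold held in 7 for Egf, 15 for Erbb2, 12 for Erbb3 and 21 for Errfi1. Cold exposure of WT mice was followed by lower Egf, Tgfa and Erbb3 and by higher Errfi1, while in KO mice Errfi1 was the only one of the 7 past the test, and it was higher. The tests were edgeR's quasi-likelihood tests, adjusted by Benjamini and Hochberg over 15208 genes, and a gene is said to have risen or fallen where adjusted p was below 0.05.

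The counts of members called stand against a background in which the same tests called many genes. For KO against WT at room temperature, 2 of the 7 members were called higher and 1 lower, with 19.3% of all genes called higher and 21% lower. In the cold, 3 were called higher and 1 lower in the KO, with 25.9% of all genes called higher and 27.8% lower. For cold in WT, 1 was called higher and 3 lower, with 23% of all genes called higher and 23.2% lower. For cold in KO, 1 was called higher and 0 lower, with 7.3% of all genes called higher and 7.56% lower, and 1 member was lower at an unadjusted p under 0.05 and 0 by DESeq2 or limma voom. For the difference of the cold response (its log2 change in KO minus that in WT), 0 members were called in either direction by edgeR, DESeq2 or limma voom, and 0 had an unadjusted p under 0.05, with 10.6% of all genes called higher and 12.9% lower. The median log2 fold changes of the 7 members were 0.13, 0.41, 0.18, -0.03 and 0.26 in this order of comparisons, against 0, 0.01, -0.03, -0.02 and 0.01 over all genes. The comparisons share pools (KO against WT and cold in WT share the WT RT pools, for example), so likeness between them is no separate evidence.

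**Figure D1:**
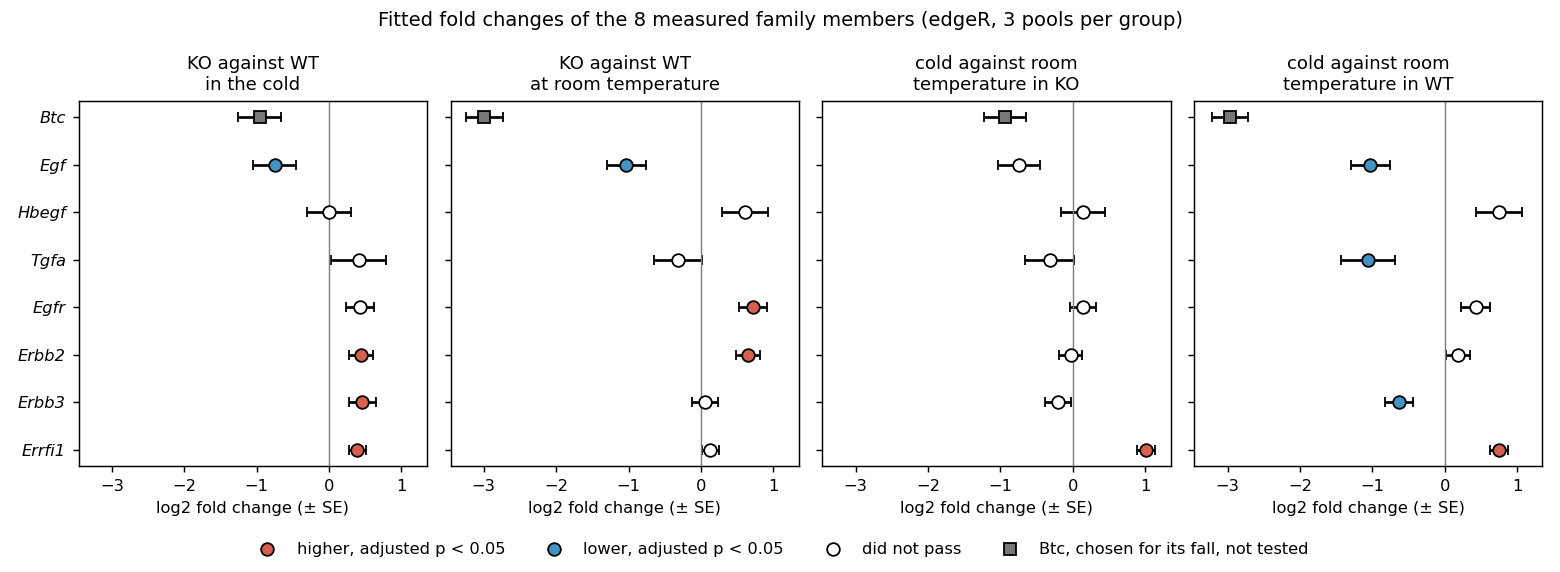
Fitted log2 fold changes (x axis) with standard errors of the 8 family members that passed the filter, in 4 pairwise comparisons of 3 pools against 3. Egf lies left of 0 in all 4 panels and passed the test in 3 of them, while Errfi1 is the only coloured point for cold in KO, at 1.01. Btc, drawn as a square, was chosen for its fall and not tested.

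Promoter windows of 4 members from RefSeq (build GRCm38.p6) follow, 5' to 3' on the strand of the gene. They are those of Btc and Egf, whose levels were highest in WT RT, and of Errfi1, which rose in the cold. The last is that of Areg, a neighbour of Btc with almost no counts. Each runs from 250 bases before to 50 bases after an annotated start, and capitals mark matches to any motif searched. Egf and Errfi1 had another window each, not shown. That of Errfi1, chr4:150853546-150853845, held no match and lies nearer to the annotated start of the gene, 150853919, than the window shown. The windows lie at chr5:91402945-91403244 on the minus strand for Btc, chr3:129755273-129755572 on the minus strand for Egf, chr4:150854820-150855119 on the plus strand for Errfi1 and chr5:91139349-91139648 on the plus strand for Areg.
Btc: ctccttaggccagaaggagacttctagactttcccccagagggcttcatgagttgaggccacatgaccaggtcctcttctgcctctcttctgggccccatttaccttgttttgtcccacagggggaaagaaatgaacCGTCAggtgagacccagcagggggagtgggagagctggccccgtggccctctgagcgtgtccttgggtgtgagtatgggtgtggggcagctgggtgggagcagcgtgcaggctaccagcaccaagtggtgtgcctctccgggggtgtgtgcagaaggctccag
Egf: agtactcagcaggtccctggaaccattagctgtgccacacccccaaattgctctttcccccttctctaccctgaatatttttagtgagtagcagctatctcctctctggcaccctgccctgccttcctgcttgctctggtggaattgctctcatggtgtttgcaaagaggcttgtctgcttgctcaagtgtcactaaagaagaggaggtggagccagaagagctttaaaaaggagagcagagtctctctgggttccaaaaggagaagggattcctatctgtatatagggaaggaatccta
Errfi1: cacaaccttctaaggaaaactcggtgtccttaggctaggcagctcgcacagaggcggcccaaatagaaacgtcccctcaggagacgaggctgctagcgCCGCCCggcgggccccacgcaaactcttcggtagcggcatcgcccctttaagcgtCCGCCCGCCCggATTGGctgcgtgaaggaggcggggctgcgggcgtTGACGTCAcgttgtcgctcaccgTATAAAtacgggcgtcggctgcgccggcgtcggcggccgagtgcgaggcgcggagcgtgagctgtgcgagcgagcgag
Areg: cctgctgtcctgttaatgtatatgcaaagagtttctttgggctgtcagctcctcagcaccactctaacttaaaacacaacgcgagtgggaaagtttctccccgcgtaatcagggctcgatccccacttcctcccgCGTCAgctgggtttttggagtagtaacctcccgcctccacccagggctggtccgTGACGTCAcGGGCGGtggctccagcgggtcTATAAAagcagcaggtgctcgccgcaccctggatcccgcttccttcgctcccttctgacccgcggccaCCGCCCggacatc

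Motifs were searched on both strands among 32817 promoter windows of the same length. The TATA box, written TATAAA, was found in 13.6% of them, and the CCAAT box, written CCAAT, in 37.4%. The GC box, written GGGCGG, was found in 35.6%. The full cAMP response element, written TGACGTCA, was found in 1.79%, and its core, written TGACG, in 20.8%. The E-box, written CACGTG, was found in 7.15%, and the AP-1 site, written TGANTCA, in 7.81%. The Btc window held 5 CG dinucleotides and a single match, the core of a cAMP response element beginning at position -113 from the start. The Egf window held no CG dinucleotide and none of these letters. The Errfi1 window held 41 CG dinucleotides, a TATA box at -28, a full cAMP response element at -51 with both of its cores inside it, CCAAT on the opposite strand at -85 and GC boxes at -152, -97 and -93, of which the last pair overlap. The Areg window, though its gene had almost no counts, held a TATA box at -31, a full cAMP response element at -61, a further core at -115 and GC boxes at -52 and 38. All promoter windows had a median of 7 CG dinucleotides, with quartiles of 3 and 20. Windows were found for 7 members, 9 windows in all, and Egf and Errfi1 had another window each, with 17 and 2 CG dinucleotides and none of the motifs. Among the other members Tgfa held GC boxes at -126 and -15, Egfr a GC box at -9, and Erbb2 CCAAT at -41 and a core of the cAMP response element at -171. Hbegf, Ereg and Erbb3 were not matched. A match says only that the letters occur in the window.

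Btc, betacellulin, a ligand of EGFR and ERBB4, was high in WT RT pools and low in the other 3 groups. The gene (ENSMUSG00000082361) lies on the minus strand of chromosome 5 at 91357261 to 91402994 in GRCm38. It had 0.43, 0.271 and 0.493 CPM in KO cold, 0.749, 0.59 and 0.968 CPM in WT cold, 0.93, 0.572 and 0.782 CPM in KO RT and 6.21, 7.05 and 5.01 CPM in WT RT. WT RT pools did not overlap with any other group, WT cold and KO RT overlapped with each other, and KO cold pools lay below all others. These levels rest on 10 to 17 counts per pool in KO cold, 13 to 26 in WT cold, 18 to 34 in KO RT and 162 to 248 in WT RT. The mean in KO RT was 12.5% of that in WT RT, a log2 fold change of -2.99 ± 0.25 (SE, n = 3 each), and in WT cold it was 12.6% of that in WT RT (-2.97 ± 0.25). In KO cold the mean was 51.7% of that in WT cold (-0.96 ± 0.3) and 52.3% of that in KO RT (-0.94 ± 0.29). The fitted cold responses, in KO minus in WT, differed by 2.02 ± 0.39. Since Btc was picked for these falls, nothing is read from the share of all genes whose pools did not overlap downward, which was 24.9% when KO RT was set against WT RT, 32.1% when KO cold was set against WT cold, 27.9% when WT cold was set against WT RT and 17.4% when KO cold was set against KO RT. With libraries scaled by their totals alone, the difference between KO and WT in the cold shrank to -0.53.

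Summed brown adipocyte markers moved with part of this pattern. They were 14000 to 15000 CPM in KO cold, 26900 to 29800 in WT cold, 12700 to 15700 in KO RT and 18900 to 21300 in WT RT. In bulk tissue, fewer cells of a type and less RNA per cell cannot be told apart. Brown adipocyte sums were thus lower in KO at both temperatures, as Btc was, but higher in WT cold than in WT RT, where Btc was lower. The higher sum in WT cold was mostly Ucp1 (16100 CPM, against 7300 in WT RT). For cold in WT, 2 of the 8 markers were called higher and 1, Adipoq, lower, with 23% of all genes called higher and 23.2% lower. The lower sum in KO cold than in WT cold was also mostly Ucp1 (4070 CPM, against 16100). In that comparison 3 of the 8 were called lower and 0 higher, with 27.8% of all genes called lower and 25.9% higher. At room temperature 5 were called lower and 0 higher in the KO, with 21% of all genes called lower and 19.3% higher. The part of cell composition in the Btc levels was not tested.

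Egf, the founding ligand of the family, which binds EGFR, had the same order of groups as Btc over a smaller range. It had 0.632, 0.542 and 0.647 CPM in KO cold, 0.712, 0.862 and 1.49 CPM in WT cold, 1.37, 0.762 and 0.912 CPM in KO RT and 2.15, 2.1 and 2.04 CPM in WT RT. WT RT pools stood above all others, WT cold and KO RT overlapped, and KO cold pools were lowest. At room temperature Egf in the KO fell to 48.4% of the WT mean (log2 fold change -1.03 ± 0.27, adjusted p = 0.0056 by edgeR), though adjusted p was 0.056 without the 2 muscle-rich pools. Cold in WT brought it to 48.7% of the room temperature mean (-1.03 ± 0.27, adjusted p = 0.0055). In the cold, the KO was lower than WT by a narrow margin (-0.75 ± 0.3, adjusted p = 0.043). That last call was lost without WT cold replicate 3 (-0.36, adjusted p = 0.34), without any KO cold pool (adjusted p from 0.066 to 0.12), without any WT RT pool or KO RT replicate 6 (0.05 to 0.054) and without both muscle-rich pools (0.061). It was also lost under DESeq2, under another filter or in a fit of the 6 cold libraries (0.056 to 0.061), and scaling by library totals alone gave -0.32. Cold in KO did not pass the test (-0.75 ± 0.29, adjusted p = 0.096), and the difference of the cold response was 0.28 ± 0.41 (adjusted p = 0.66). Egf (ENSMUSG00000028017, chromosome 3, 129677565 to 129755316, minus strand) shares exonic bases with 6330410L21Rik and Gm42697 on the other strand, so its low counts are uncertain.

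Tgfa, transforming growth factor alpha, another ligand of EGFR, was lower in cold WT pools. It had 0.607, 0.298 and 0.462 CPM in KO cold, 0.524, 0.272 and 0.223 CPM in WT cold, 0.684, 0.572 and 0.456 CPM in KO RT and 0.766, 0.739 and 0.653 CPM in WT RT. Each group overlapped with its neighbours in the order of means, and WT cold did not overlap with WT RT. Cold in WT brought the mean to 47.2% (-1.06 ± 0.37, adjusted p = 0.027 by edgeR). The call was lost without WT RT replicate 1 (0.055), WT RT replicate 2 (0.065), WT cold replicate 2 (0.092) or WT cold replicate 3 (-0.82, adjusted p = 0.12), without both muscle-rich pools (0.072) and with DESeq2 (0.052). Between genotypes the values did not pass, with -0.32 ± 0.33 in RT pools (adjusted p = 0.47) and 0.41 ± 0.38 in cold pools (adjusted p = 0.38), and cold in KO gave -0.32 ± 0.34 (adjusted p = 0.58). Tgfa (ENSMUSG00000029999) lies at 86195223 to 86275719 on the plus strand of chromosome 6 and overlaps Gm43917 on the other strand.

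Hbegf (ENSMUSG00000024486), which encodes the heparin-binding ligand of EGFR and ERBB4, passed no test. It had 1.04, 0.651 and 1.6 CPM in KO cold, 1.16, 1.18 and 0.931 CPM in WT cold, 1.12, 1.14 and 0.684 CPM in KO RT and 0.69, 0.597 and 0.653 CPM in WT RT. WT RT was lowest on average, and every WT cold pool lay above every WT RT pool, at 0.75 ± 0.32 on the log2 scale (adjusted p = 0.067 by edgeR, and 0.044 or 0.043 without KO cold replicate 2 or 3, and 0.031 in a fit of the 6 WT libraries). Groups of pools did not overlap upward for 27.5% of all genes in cold WT against WT at room temperature. Between genotypes the log2 fold change was 0.61 ± 0.32 in RT pools (adjusted p = 0.14) and 0 ± 0.31 in cold pools (adjusted p = 1). Scaling by library totals alone moved the room temperature value to 0.83 with adjusted p = 0.044.

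Areg (amphiregulin) and Ereg (epiregulin), ligands whose genes lie next to Btc on chromosome 5, were almost without counts. Areg had 1 count in each KO RT pool and 0 in the other 9 libraries, and Ereg had 1 count in KO cold replicate 1 and 0 in the other 11. A single count was worth 0.0253 to 0.0454 CPM, and a count of 0 allows up to 3 counts, or 0.0758 to 0.136 CPM depending on the library, by counting error only. Neither gene was tested, and no difference between groups was detectable at this depth.

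**Figure D2:**
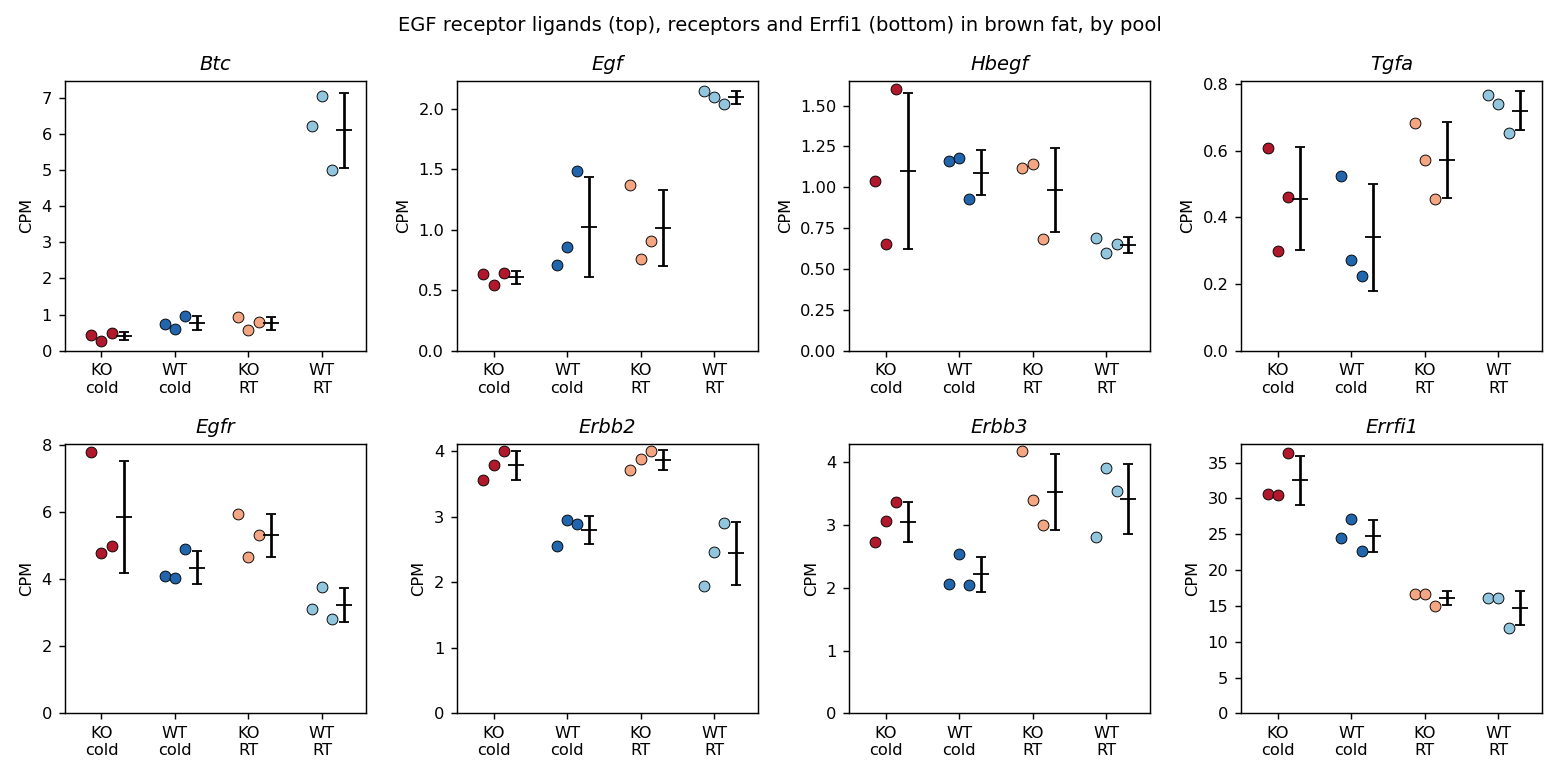
Levels (y axis, CPM with TMM factors) of the 4 measured ligand genes in the top row and of 3 receptor genes and Errfi1 in the bottom row, 1 point per pool, with the group mean and SD beside the 3 points. Btc and Egf are highest in WT RT, where Btc reached 5.01 to 7.05 CPM, while Errfi1 is highest in KO cold, at 30.5 to 36.4 CPM.

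Among the receptors, Egfr, which binds most of the ligands above, was higher in the KO at room temperature. It had 7.78, 4.77 and 4.99 CPM in KO cold, 4.08, 4.04 and 4.91 CPM in WT cold, 5.94, 4.67 and 5.31 CPM in KO RT and 3.1, 3.78 and 2.8 CPM in WT RT. WT RT pools lay below all others, and the other 3 groups overlapped. The KO mean at room temperature was 1.64 times the WT mean (0.72 ± 0.19, adjusted p = 0.0069 by edgeR), with no overlap of pools, as for 23.9% of all genes in that direction. In the cold, KO cold replicate 1 was highest and the groups overlapped (0.43 ± 0.19, adjusted p = 0.065). Cold in WT gave 0.43 ± 0.2 (adjusted p = 0.083, and 0.042 without KO cold replicate 1) and cold in KO 0.14 ± 0.18 (adjusted p = 0.66). The cold comparison of KO and WT passed with library totals alone (0.87), with another filter (0.036 or 0.039), in a fit of the 6 cold libraries (0.045), without KO cold replicate 2 (0.56, adjusted p = 0.034) or without KO cold replicate 3 (0.53, adjusted p = 0.044). The gene (ENSMUSG00000020122) lies on the plus strand of chromosome 11, at 16752203 to 16918158.

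Erbb2, the partner receptor without a ligand, was higher in the KO at both temperatures. It had 3.56, 3.8 and 4.01 CPM in KO cold, 2.55, 2.95 and 2.9 CPM in WT cold, 3.72, 3.88 and 4.01 CPM in KO RT and 1.95, 2.47 and 2.91 CPM in WT RT. All 6 KO pools lay above all 6 WT pools, and within each genotype cold and room temperature overlapped. The KO mean was 1.58 times the WT mean at room temperature (0.65 ± 0.17, adjusted p = 0.005 by edgeR) and 1.35 times in the cold (0.44 ± 0.17, adjusted p = 0.035), where pools did not overlap upward for 30.6% of all genes. The call in the cold was lost without any of 3 WT or 2 KO cold pools, with adjusted p of 0.12, 0.052 and 0.053 without WT cold replicates 1, 2 and 3 and of 0.076 and 0.095 without KO cold replicates 2 and 3, and it was 0.052 without both muscle-rich pools and 0.072 with no filter beyond 1 count. The cold itself gave 0.18 ± 0.17 in WT mice (adjusted p = 0.4) and -0.03 ± 0.16 in KO mice (adjusted p = 0.93). Erbb2 (ENSMUSG00000062312, chromosome 11, 98412470 to 98437716, plus strand) shares exonic bases with Mien1 on the other strand.

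Erbb3, a receptor of neuregulins with little kinase activity, was lower in cold WT pools. It had 2.73, 3.06 and 3.36 CPM in KO cold, 2.06, 2.54 and 2.05 CPM in WT cold, 4.18, 3.4 and 3 CPM in KO RT and 2.8, 3.9 and 3.54 CPM in WT RT. WT cold pools lay below all others and the other 3 groups overlapped. Cold in WT brought the mean to 65% (-0.63 ± 0.19, adjusted p = 0.011 by edgeR), and adjusted p was 0.059 without WT RT replicate 2 and 0.058 without both muscle-rich pools. KO pools were above WT pools in the cold (0.46 ± 0.19, adjusted p = 0.048), a call lost without both muscle-rich pools (0.051), with DESeq2 (0.055) and with no filter beyond 1 count (0.067). It was also lost without KO cold replicate 3 (0.39, adjusted p = 0.14), WT cold replicate 1 (0.41, 0.13), WT cold replicate 3 (0.42, 0.12), KO cold replicate 2 (0.46, 0.095), KO RT replicate 5 (0.055), WT RT replicate 2 (0.052) or WT RT replicate 3 (0.051). At room temperature the genotypes gave 0.05 ± 0.18 (adjusted p = 0.86), and cold in KO gave -0.21 ± 0.18 (adjusted p = 0.47). The gene (ENSMUSG00000018166) lies on the minus strand of chromosome 10, at 128567523 to 128589652.

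Markers of stromal and vascular cells were higher in the KO beside these receptors. Summed fibroblast and preadipocyte markers were 459 to 605 CPM in KO cold, 380 to 508 in WT cold, 444 to 518 in KO RT and 317 to 370 in WT RT, and 4 of the 7 rose in the KO at room temperature and 5 in the cold. Endothelial markers summed to 709 to 835 CPM in KO cold, 634 to 649 in WT cold, 719 to 732 in KO RT and 492 to 595 in WT RT, and 6 of 8 rose in the KO at each temperature. Of the macrophage markers, 9 of the 9 tested rose in the KO at both temperatures. Summed Schwann cell markers, a cell type known for Erbb3, were 82.6 to 85.1 CPM in KO cold and 98.8 to 112 in WT cold, although 4 of the 7 genes rose and 2 fell. Of all genes, 19.3% were called higher in the KO at room temperature. In the cold 25.9% were called higher and 27.8% lower. The part of these cell types in the receptor levels was not tested.

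Errfi1, which encodes an adaptor that binds activated EGFR-family kinases and blocks them, rose in the cold in both genotypes. It had 30.6, 30.5 and 36.4 CPM in KO cold, 24.5, 27.1 and 22.6 CPM in WT cold, 16.7, 16.7 and 15 CPM in KO RT and 16.1, 16.1 and 11.9 CPM in WT RT. All cold pools lay above all room temperature pools, and KO cold pools lay above WT cold pools. The cold mean was 2.01 times the room temperature mean in KO (1.01 ± 0.12, adjusted p = 3.2e-05 by edgeR), where groups did not overlap upward for 15.3% of all genes, and 1.68 times in WT (0.75 ± 0.12, adjusted p = 7.1e-05). The difference between these responses was 0.26 ± 0.17 (adjusted p = 0.28). In the cold, the KO mean was 1.31 times the WT mean (0.39 ± 0.12, adjusted p = 0.009), with adjusted p = 0.053 and a log2 change of 0.3 without KO cold replicate 3. At room temperature the genotypes gave 0.13 ± 0.12 (adjusted p = 0.39), which among the alternatives passed only with library totals alone (0.35, adjusted p = 0.027). The gene (ENSMUSG00000028967) lies on the plus strand of chromosome 4, at 150853919 to 150868892.

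The remaining genes of the pathway were taken from 5 lists of 54 genes, of which 50 were tested. Among all of them, 8 were called higher and 13 lower in the KO at room temperature, and 13 higher and 18 lower in the cold. For cold in WT 13 were called higher and 11 lower, and for cold in KO 5 and 3. The difference of the cold response was called higher for 6 and lower for 5. The shares of all genes given above for the same tests apply here too. Scaling by library totals alone, which puts the median of all genes at 0.22 between KO RT and WT RT, 0.45 between KO cold and WT cold, -0.23 for cold in WT and 0.24 for the difference of the cold response, turned the splits between genotypes to 16 higher and 8 lower, and to 24 higher and 2 lower.

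The receptor Erbb4 and its brown-fat ligand gene Nrg4 were both lower in the KO. Erbb4, a receptor for neuregulins and betacellulin, had 1.9, 1.63 and 2.53 CPM in KO cold, 2.58, 4.17 and 3.65 CPM in WT cold, 3.17, 2.95 and 2.28 CPM in KO RT and 6.36, 8.9 and 8.57 CPM in WT RT, so that WT RT stood above all others. It fell in the KO by 1.5 on the log2 scale at room temperature (SE 0.21, adjusted p = 3.1e-05 by edgeR) and by 0.78 in the cold (SE 0.22, adjusted p = 0.0062), where library totals alone gave -0.34 with adjusted p = 0.21. Cold in WT lowered it too (-1.2 ± 0.21, adjusted p = 0.00015), and in KO the change was -0.48 ± 0.22 (adjusted p = 0.15), a difference between genotypes of 0.72 ± 0.3 that did not pass (adjusted p = 0.09). Nrg4 had 137, 172 and 156 CPM in KO cold, 381, 389 and 365 CPM in WT cold, 175, 196 and 188 CPM in KO RT and 401, 352 and 309 CPM in WT RT. Its KO pools lay below all WT pools, by -1.29 ± 0.1 in the cold (adjusted p = 9.7e-08) and -0.93 ± 0.1 at room temperature (adjusted p = 4.6e-06). Cold changed Nrg4 past the threshold in neither genotype (0.1 ± 0.1 in WT mice, adjusted p = 0.47, -0.26 ± 0.1 in KO mice, adjusted p = 0.098). Of the other 4 genes of this list, Nrg2 passed no test, and Epgn (0 to 10 counts per library), Nrg1 and Nrg3 (0 to 3) were too low to test. Nrg4 shares exonic bases with Fbxo22, so its values are uncertain to that extent. Of 8 brown adipocyte markers, 5 fell in the KO at room temperature and 3 in the cold, where 27.8% of all genes were called lower, and their part in the Nrg4 levels was not tested.

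**Figure D3:**
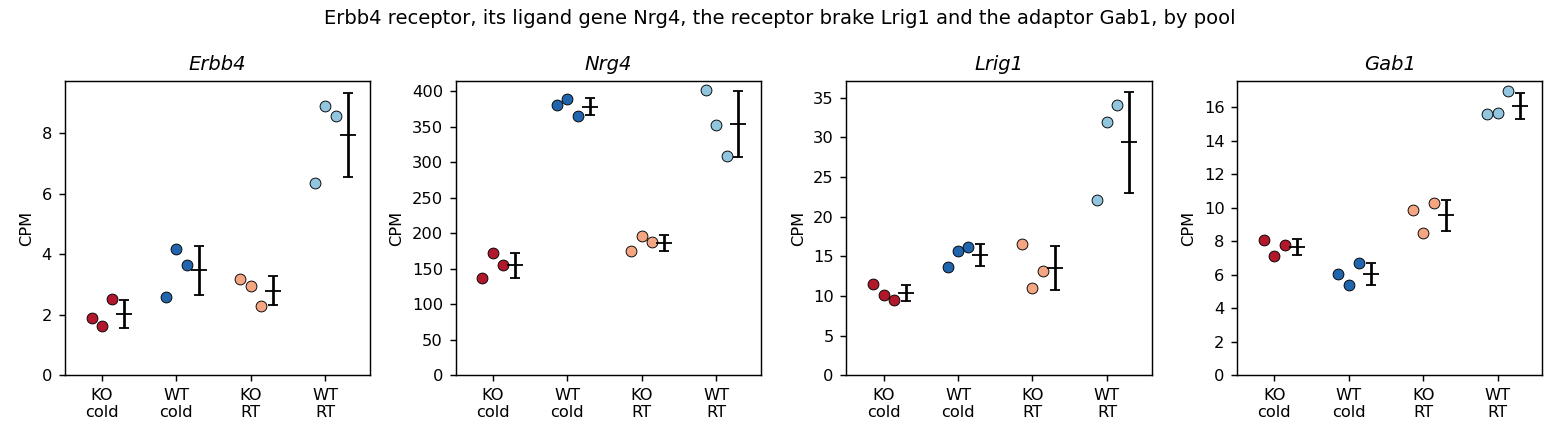
Levels (y axis, CPM with TMM factors) of Erbb4, Nrg4, the receptor inhibitor Lrig1 and the adaptor Gab1 by pool, with group mean and SD. Erbb4, Lrig1 and Gab1 are highest in WT RT, while Nrg4 separates the genotypes at both temperatures, with 137 to 196 CPM in KO pools and 309 to 401 CPM in WT pools.

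Transcripts of genes that act in ligand release showed small changes, and release itself was not measured. Of 6 genes, 1 was called higher and 1 lower in the KO at room temperature (median 0.2). In the cold, 2 were called higher and 1 lower (median 0.19). The shares of all genes were 19.3% higher and 21% lower at room temperature, and 25.9% higher and 27.8% lower in the cold. Adam17, the main protease that frees several EGFR ligands, rose in cold WT mice (0.68 ± 0.08, adjusted p = 5.5e-06 by edgeR) to 73.5, 74.3 and 71 CPM, against 46.2, 45.9 and 44.2 CPM in WT RT. In KO mice the cold gave 0.15 ± 0.08 (adjusted p = 0.26), and the genotypes' responses differed by -0.54 ± 0.12 (adjusted p = 0.0038). In the cold Adam17 was lower in the KO (-0.41, adjusted p = 0.00066), though with library totals alone the value was 0.04. Adam9, a related protease, fell in the KO at room temperature (-0.4, adjusted p = 0.00051), and Timp3, an inhibitor of ADAM17, rose in the KO in the cold (0.35, adjusted p = 0.018), a call lost without WT cold replicate 2 or KO cold replicates 2 or 3, down to 0.27 with adjusted p = 0.085 for the last of these. Rhbdf1, a partner of ADAM17 in its transport, was higher in the KO at both temperatures by 0.32 and 0.33 and lower after cold in WT (-0.4) and in KO (-0.39). Its calls were lost without WT RT replicates 1 or 2 or KO RT replicates 4 or 5 (0.24 to 0.32) between genotypes at room temperature, where they were also lost without both muscle-rich pools (adjusted p = 0.13), with no filter (0.069) and in limma voom (0.059), and without WT cold replicates 1 or 3 or KO cold replicates 2 or 3 (0.27 to 0.32) in the cold. They were lost without WT RT replicate 3 (-0.28) for cold in WT, and without any KO RT pool or KO cold replicates 1 or 2 (-0.42 to -0.33) for cold in KO, where leaving out both muscle-rich pools (-0.42, adjusted p = 0.063) or scaling by library totals alone (adjusted p = 0.11) also ended the call. Exons of Adam17, Timp3, Gab1, Araf, Braf, Plcg1, Dusp5, Fosl1 and Nrg1 overlap a gene on the opposite strand, so their values are uncertain to that extent.

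Of the 17 adaptors and RAS-ERK genes, 2 were called higher and 3 lower in the KO at room temperature (median -0.08). In the cold, 4 were called higher and 9 lower (median -0.27). Among all genes, 19.3% were called higher and 21% lower at room temperature, and 25.9% higher and 27.8% lower in the cold. Gab1, a docking protein that links EGFR to PI3-kinase and SHP2, had 8.09, 7.13 and 7.76 CPM in KO cold, 6.07, 5.4 and 6.7 CPM in WT cold, 9.85, 8.51 and 10.3 CPM in KO RT and 15.6, 15.7 and 17 CPM in WT RT. It fell in the KO at room temperature (-0.76 ± 0.11, adjusted p = 5.9e-05 by edgeR) and in cold WT mice (-1.41 ± 0.12, adjusted p = 9.3e-08). In KO mice the cold gave -0.32 ± 0.11 (adjusted p = 0.067), and the responses differed by 1.09 ± 0.16 (adjusted p = 0.00026). The kinase genes Araf and Braf were lower in the KO in the cold, Araf at -0.47 (adjusted p = 3.4e-05) and Braf at -0.48 (adjusted p = 0.00015), but with library totals alone these were -0.03 and -0.04 and passed no test. Sos1, an exchange factor that loads RAS with GTP, rose in cold WT mice (0.79, adjusted p = 1.6e-05) with a response lower in KO by -0.69 ± 0.15 (adjusted p = 0.0037), and Sos2, its relative, fell in the KO at room temperature (-0.57, adjusted p = 0.00022). Cold in WT called 5 of the list higher and 3 lower, and cold in KO 1 lower, Araf (-0.22, adjusted p = 0.038), a call lost on leaving out any KO pool, WT RT replicate 3 or WT cold replicates 2 or 3 (adjusted p from 0.054 to 0.12). It was also lost without both muscle-rich pools (-0.21, adjusted p = 0.14), with median-ratio size factors (0.051), library totals alone (0.21) or no filter (0.26), and in the 6 KO libraries by themselves (0.11). For cold in KO 0 of the list were called higher by edgeR, with 2 at an unadjusted p under 0.05. DESeq2 called 1 higher and limma voom 2. By edgeR, 23% of all genes were called higher and 23.2% lower for cold in WT. For cold in KO these shares were 7.3% and 7.56%.

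The 14 brakes of the pathway included 2 called higher and 5 lower in the KO at both temperatures. Their medians were -0.25 at room temperature and -0.17 in the cold. Over all genes, 19.3% were called higher and 21% lower at room temperature, and 25.9% higher and 27.8% lower in the cold. Lrig1, a membrane protein that promotes loss of EGFR-family receptors, had 16.5, 11 and 13.2 CPM in KO RT, against 22.1, 31.9 and 34.1 CPM in WT RT (-1.12 ± 0.16, adjusted p = 0.00013 by edgeR). In the cold it had 11.5, 10.1 and 9.55 CPM in KO pools, against 13.6, 15.7 and 16.2 CPM in WT pools (-0.55 ± 0.17, adjusted p = 0.014). Its exons overlap Slc25a26. The ERK phosphatase genes went apart, since Dusp5 rose in the KO both in RT pools (1.27 ± 0.22, adjusted p = 0.00031) and in cold pools (1.11 ± 0.21, adjusted p = 0.00038) while Dusp4 fell in the KO at room temperature (-0.73, adjusted p = 5e-05) and in cold WT mice (-0.8, adjusted p = 1.2e-05). Spry4, a Sprouty inhibitor of RAS activation, had 18.7, 18.9 and 22.5 CPM in KO cold, against 68.2, 60.4 and 51.4 CPM in WT cold (-1.58 ± 0.21, adjusted p = 0.00013). Spred2, a related inhibitor, fell there too (-0.48, adjusted p = 0.00049), although not with library totals alone (-0.04). Cblb, a ubiquitin ligase that marks activated receptors, rose in the cold in WT mice (1.19, adjusted p = 4.9e-06) and likewise in KO mice (0.66, adjusted p = 0.004). Cold in WT called 5 brakes higher and 3 lower, with 23% and 23.2% of all genes. Cold in KO called 3 higher, Cblb, Spry1 and Dusp5, with 7.3% of all genes. Without both muscle-rich pools the edgeR calls of Spry1 (adjusted p = 0.071) and Dusp5 (0.15) were lost. That of Spry1 was also lost without KO RT replicates 4 or 6 or KO cold replicates 2 or 3 (0.061 to 0.11). That of Dusp5 was lost without KO RT replicates 4 or 6 or KO cold replicates 1 or 2 (0.08 to 0.15). A fit of the 6 KO libraries also lost it (0.061).

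**Figure D4:**
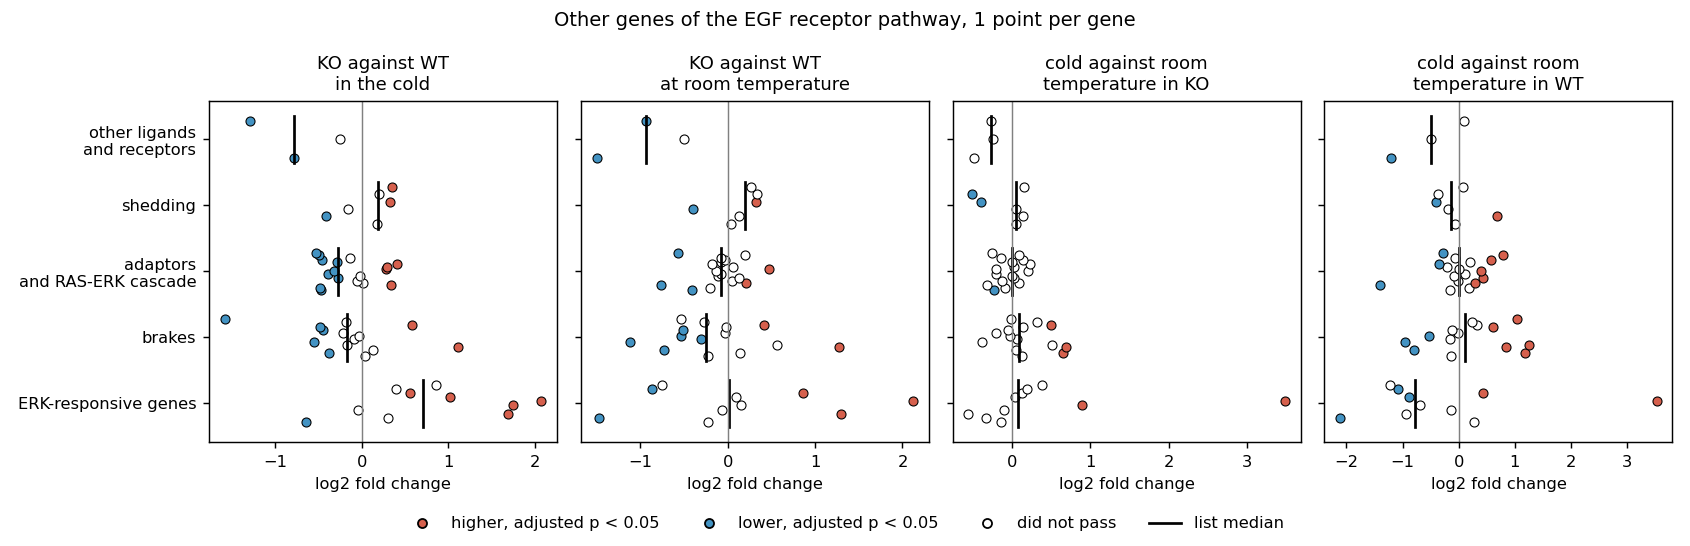
Log2 fold changes (x axis) of the 50 tested pathway genes, 1 point per gene, by list (rows) and pairwise comparison (panels), with the list median as a bar. Points spread to both sides of 0 in most lists, and Fosl1 lies farthest right for cold in KO, at 3.48, and for cold in WT, at 3.53.

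Of 11 genes known to respond to ERK signalling, 10 were tested. In the KO, 3 were called higher and 2 lower at room temperature (median 0.01), against 5 higher and 1 lower in the cold (median 0.71). The same tests called 19.3% of all genes higher and 21% lower at room temperature, and 25.9% higher and 27.8% lower in the cold. Fosl1, a subunit of the AP-1 transcription factor, had 3.74, 2.71 and 3.08 CPM in KO cold, 0.862, 0.816 and 0.596 CPM in WT cold, 0.356, 0.286 and 0.196 CPM in KO RT and 0.115, 0.0284 and 0.0544 CPM in WT RT, with no overlap between any of the 4 groups. It rose in the KO in the cold (2.07 ± 0.26, adjusted p = 7.9e-06 by edgeR) and at room temperature (2.12 ± 0.48, adjusted p = 0.0023), and with cold in KO (3.48 ± 0.29, adjusted p = 1.5e-06) and WT (3.53 ± 0.43, adjusted p = 4.9e-06), though its counts began at 1 per library. Fos, another AP-1 subunit, was higher in the KO in the cold, with 5.05, 3.09 and 5.3 CPM against 1.39, 1.18 and 1.41 CPM in WT cold (1.75 ± 0.27, adjusted p = 6.1e-05). Egr1, an early response factor, was lower in cold WT mice, with 2.47, 4.04 and 4.06 CPM against 20, 7.99 and 17.6 CPM in WT RT (-2.11 ± 0.43, adjusted p = 0.0033). Myc fell in the KO at room temperature (-0.87, adjusted p = 0.0063) and in cold WT mice (-1.08, adjusted p = 0.0013). Macrophage marker sums were higher in the KO at both temperatures, and their part in the levels of these widely expressed genes was not tested.

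The genes whose levels ran most like Btc over the 12 libraries were Ddhd1, Etfrf1, Gtf2i, Tmem164 and Cdk6, taken by Pearson correlation of log2 CPM among 10347 genes. Ddhd1, a phospholipase gene, had r = 0.987 with Btc and averaged 18.3 CPM in KO cold, 21.2 in WT cold, 23.3 in KO RT and 52.9 in WT RT. Cdk6, a kinase gene of the cell cycle, had r = 0.978 and averaged 5.26 CPM in KO cold, 7 in WT cold, 6.93 in KO RT and 17.5 in WT RT. Etfrf1, Gtf2i and Tmem164 had r of 0.983, 0.98 and 0.979, and the counts of Etfrf1 are uncertain because its exons are not free of overlap. All 5 share with Btc a high level in WT RT and lower levels in the other 3 groups. That likeness follows from how they were chosen. With the group means removed, r was 0.832 for Ddhd1, 0.61 for Etfrf1, 0.52 for Gtf2i, 0.478 for Tmem164 and 0.433 for Cdk6. Erbb4 ranked 161 with r = 0.929, and 0.206 with the group means removed. These are descriptions over libraries that share groups and depth, with no test.

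Btc lies at the end of a cluster of ligand genes, most of which had too few counts to test. Within 500000 bases of either side of Btc were 7 other protein-coding genes, a list made by position after the values were seen, and 3 of them had counts enough to test. Parm1, a mucin-like membrane protein gene and the neighbour on the far side of the cluster, averaged 353 CPM in KO cold, 554 in WT cold, 420 in KO RT and 275 in WT RT. It was higher in the KO at room temperature (0.61 ± 0.12, adjusted p = 0.00067 by edgeR), where Btc was lower, and lower in the KO in the cold (-0.65 ± 0.12, adjusted p = 0.00022), a call lost with library totals alone (-0.22, adjusted p = 0.15). Cold raised Parm1 in WT (1.01 ± 0.12, adjusted p = 3.8e-06) and gave -0.25 ± 0.12 in KO (adjusted p = 0.16). Cxcl1, a chemokine gene with 3 to 30 counts per library, was higher in KO RT than in WT RT (1.41 ± 0.45, adjusted p = 0.019) and higher in KO cold than in WT cold (1.63 ± 0.41, adjusted p = 0.0032), and the call at room temperature was lost without WT RT replicate 3 (1.07, adjusted p = 0.099) or KO RT replicate 5 (1.13, adjusted p = 0.09). Mthfd2l, a mitochondrial folate enzyme gene, averaged 6.41 CPM in KO cold, 5.07 in WT cold, 5.47 in KO RT and 6.66 in WT RT. Between genotypes it passed no threshold in RT pools (-0.28 ± 0.14, adjusted p = 0.13) or cold pools (0.34 ± 0.15, adjusted p = 0.062). It fell in cold WT mice (-0.39 ± 0.15, adjusted p = 0.037), a call lost without WT RT replicate 1 or 2 or WT cold replicate 1 or 2, and without both muscle-rich pools (-0.32, adjusted p = 0.16). The remaining neighbours, Cxcl2, Epgn, Ereg and Areg, had at most 10 counts in any library.

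**Figure D5:**
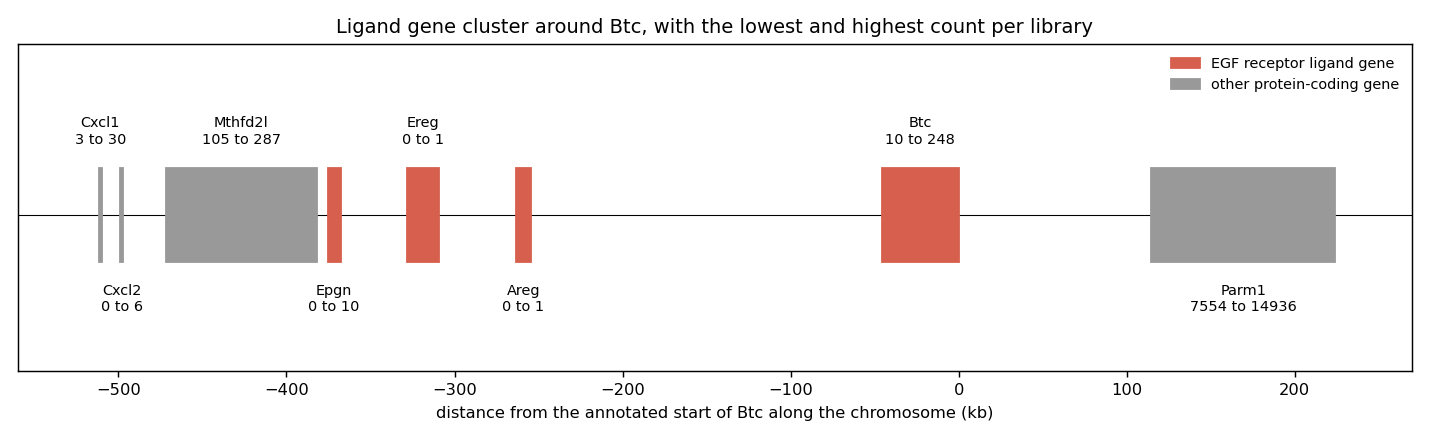
Map of the protein-coding genes around Btc, by distance in kilobases from its annotated start along the chromosome (x axis), with the lowest and highest count per library under each name. The ligand genes Epgn, Ereg and Areg had at most 10 counts, Btc 10 to 248 and Parm1 7554 to 14936.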

How the data were processed

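Each library came as a deposited table of raw counts by Ensembl gene ID. STAR and HTSeq are named in the submitters' processing notes, with GRCm38 as the build, and versions are not given in the sources used here. The names of the deposited tables refer to a reverse strand setting, which no other source states, so genes with exons that overlap another gene on either strand are called uncertain. Summary lines of HTSeq (1.64 to 2.26% of reads outside genes, 1.07 to 1.37% ambiguous, 1.12 to 1.86% unaligned, 26.6 to 30.2% with several alignments) were left out, so genes with near-identical copies are undercounted. Of 53379 gene IDs, 53274 matched the GENCODE annotation of that build.

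These counts were analysed with edgeR 4.0.16 under R 4.3.3. The filterByExpr filter by group left 15208 genes and removed 38171. TMM factors ran from 1.07 to 1.18 in KO pools and from 0.799 to 1.02 in WT pools. Fold changes between genotypes therefore depend on this scaling. The common biological coefficient of variation was 13.6%. All 12 libraries entered a single model with group means only, and quasi-likelihood tests were adjusted by Benjamini and Hochberg over all tested genes at 0.05. CPM values use the TMM factors, fitted fold changes a prior count of 0.125, and the correlations with Btc a prior count of 2. No replicates agreed within sampling noise. The alternatives were median-ratio size factors, library totals alone, a filter of 1 count in all, a strict filter (1 CPM in 6 libraries), DESeq2 1.42.0, limma 3.58.1 voom, only the 6 libraries compared, a replicate block, each library left out, and the 2 muscle-rich libraries left out. A fit of the same 9 libraries without the block was added after the data had been seen.

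The members, gene lists, alternatives and rules were chosen with earlier results of these data known. Named were all members, all genes of the list of other ligands and receptors, up to 3 genes with the smallest p per list and comparison, and the 5 genes most like Btc whose log2 CPM averaged 1 or more. Lrig1 in the cold, the neighbours of Btc and Erbb4 in the ranking were named after their values were seen. Some genes that this rule takes are not reported here. No batch was tested, since the labels name none. Promoter windows came from RefSeq.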

Additional observations from a re-analysis of the deposited data

Results flagged for a closer look

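For 12 named genes the cold response in KO minus that in WT differed from 0 by edgeR's interaction test, adjusted over all genes. The same test called 10.6% of all genes higher and 12.9% lower. Of the 50 tested pathway genes it called 6 higher and 5 lower. The pathway genes named here were taken from each list for their smallest p, so a call does not set them apart. Among these pathway genes the response was higher in KO for Gab1 (1.09 ± 0.16, adjusted p = 0.00026), Plcg1 (0.59 ± 0.12, adjusted p = 0.0027), Dusp4 (0.86 ± 0.15, adjusted p = 0.00084), Fos (1.59 ± 0.38, adjusted p = 0.0066), Myc (1.27 ± 0.33, adjusted p = 0.011) and Ier3 (0.93 ± 0.32, adjusted p = 0.048). It was lower in KO for Adam17 (-0.54 ± 0.12, adjusted p = 0.0038), Sos1 (-0.69 ± 0.15, adjusted p = 0.0037), Spred2 (-0.47 ± 0.14, adjusted p = 0.019) and Spry4 (-1.05 ± 0.3, adjusted p = 0.028). Of the neighbours of Btc, Mthfd2l differed by 0.62 ± 0.21 (adjusted p = 0.037) and Parm1 by -1.27 ± 0.17 (adjusted p = 0.00012). The call of Spred2 was lost without WT RT replicate 2 (-0.39) or 3 (-0.4), WT cold replicate 2 (-0.44) or 3 (-0.43) or KO cold replicate 1 (-0.44). That of Spry4 was lost without WT RT replicate 2 (-0.94) or 3, WT cold replicate 1 or 2 or KO cold replicate 1 or 2 (-1.03 to -0.95). That of Ier3 was lost without KO cold replicate 3 (0.65), WT RT replicate 1 (0.76) or 2, any KO RT pool or any WT cold pool. That of Mthfd2l was lost without KO cold replicate 1 (0.52) or 3, WT RT replicate 2, KO RT replicate 4 or 6 or WT cold replicate 1 or 2 (0.55 to 0.6). Without both muscle-rich pools the calls of Spred2 (-0.42, adjusted p = 0.071), Ier3 (0.78, adjusted p = 0.17) and Mthfd2l (0.5, adjusted p = 0.19) were lost, and median-ratio size factors took that of Ier3 to an adjusted p of 0.05. Scaling by library totals alone removed the calls of Adam17 (-0.31, adjusted p = 0.17) and Spred2 (-0.26, adjusted p = 0.18). Of the 7 tested family members 0 passed this interaction test in edgeR, DESeq2 or limma voom, and 0 had an unadjusted p under 0.05.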

How the results depend on the processing

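Of 711 values of tested members under the alternatives, 657 kept their side of the threshold, 42 lost a call, 12 gained one and 0 reversed. A change of sign counted as a reversal only where a value passed the threshold. Some values short of it did change sign, such as Erbb3 between genotypes at room temperature (-0.13 to 0.25). Comparisons that passed no test are among the 711. For KO against WT in the cold, Egf, Erbb2, Erbb3 and Errfi1 passed in 7, 15, 12 and 21 of 22 alternatives. Of 1837 values of other named genes, 1696 were the same, 109 lost a call, 31 gained one and 1 reversed, Adam17 for KO against WT in the cold (0.04 with library totals alone). Counts that moved by over 1.5 times are given here. With library totals alone, which split all calls into 4737 higher and 1267 lower between genotypes in RT pools (2940 and 3198 with TMM), 7876 and 1074 in cold pools (3939 and 4222), 1826 and 4812 for cold in WT (3503 and 3531) and 2388 and 711 for the difference (1616 and 1966), members higher at room temperature were 4 and members lower in the cold 0. Pathway genes in KO were then 16 higher and 8 lower in RT pools, 24 and 2 in cold pools, 17 lower for cold in WT, 0 lower for cold in KO, and 10 higher and 2 lower for the difference. Btc in the cold was -0.53. Members lower in KO in the cold were 0 with no filter, the strict filter, DESeq2, the 6 libraries compared, the replicate block and without the 2 muscle-rich libraries. With the 6 libraries compared, 5 pathway genes were higher at room temperature and 2 members higher for cold in WT. With no filter, 10 pathway genes were higher for the difference. With limma voom, cold in KO had 9 pathway genes higher and 7 lower, and 10 were lower for the difference. Without the muscle-rich libraries, members lower at room temperature were 0, members higher in the cold 1 and members lower for cold in WT 1, while pathway genes higher were 4 at room temperature, and 2 higher and 0 lower for cold in KO, and 3 lower for the difference. Leaving out each library in turn gave 4 to 8 pathway genes higher at room temperature (lowest without WT RT replicate 2), 1 to 3 members higher, 0 to 1 lower and 7 to 14 pathway genes higher in the cold (lowest without KO cold replicate 3), 1 to 2 members higher and 1 to 3 lower for cold in WT, 2 to 7 pathway genes higher and 0 to 3 lower for cold in KO, and 3 to 8 lower for the difference. The cause of these moves was not tested. Btc kept its sign throughout, at -3.16 to -2.77 between genotypes in RT pools, -1.13 to -0.53 between genotypes in cold pools, and -3.17 to -2.82 and -1.18 to -0.73 for cold in WT and in KO.

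The values showed no clear pairing by replicate number, though they cannot show how the samples were handled. Correlations of deviations over 9 same-number pairs ran from -0.31 to 0.23, with 1 over 0.1. A library correlated best with its own number in 3 of 18 cases, which take each pair from both sides. KO RT pools, numbered 4 to 6, could not enter this check. With the replicate block, 3 members were higher and 0 lower for KO against WT in the cold, against 3 and 1 without it on the same 9 libraries, and 1 higher and 3 lower for cold in WT in both fits. Low counts limit Tgfa, with 6 to 26 per library, and Hbegf, with 18 to 52.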
